A study of Homo sapiens with 10 samples.

Results

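The 10 alpha and beta tubulin isotypes described here were read from RNA of PC-3 spheroids treated with topotecan on 2 schedules. The members were the rows of the table whose gene symbol was TUBA1A, TUBA1B, TUBA1C, TUBA4A, TUBB, TUBB2A, TUBB2B, TUBB3, TUBB4B or TUBB6, that is 10 of 18144 genes, 4 alpha and 6 beta, a rule that reads gene names alone. PC-3 is an established human prostate cancer line of low androgen receptor output, labelled WT for genotype, and was grown as three-dimensional spheroids in every group. Topotecan, a topoisomerase I poison, was given as 1 bolus on day 0 (CONV-TOPO, labelled CON or conventional) or as daily fractions (EE-TOPO, for extended exposure, labelled EE with treatment METRO), and untreated spheroids (labelled CTRL) received no drug. The libraries used here are those of untreated spheroids on days 0, 3 and 7 and of each regimen on days 3 and 7. Day 1 samples of each group are labelled too, and were not analysed here. Every condition is a single library and there are no replicates. A single cell line stands behind all 7 libraries. No taxane was given in any of them.

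Microtubules are hollow polymers of a heterodimer of one alpha and one beta tubulin, and the beta subunit holds the pocket to which taxanes such as docetaxel bind. The isotypes differ mainly in their acidic C-terminal tails, which lie on the microtubule surface and carry the glutamate chains that modifying enzymes add. TUBB3 is the isotype of neurons that carcinomas can also express, and TUBB3 and TUBB2B have been linked to taxane resistance. When free tubulin heterodimer is in excess, cells degrade tubulin messenger RNA during translation, a process called autoregulation in which TTC5 recognises the first residues of the new chain.

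The stretches of coding sequence that differ or agree between the isotypes are shown first, since they bear on function and on how reads are divided between near copies. They were read 5′ to 3′ from the GENCODE canonical transcripts on GRCh38. The first 4 codons, which encode the autoregulation signal, had 2 spellings among the 4 alpha and 4 spellings among the 6 beta members. All 4 alpha members encoded methionine, arginine, glutamate and cysteine, and all 6 beta members encoded the same first 3 residues followed by isoleucine. The start of TUBA1B, also that of TUBA1A and TUBA1C, that of TUBA4A, and those of TUBB, TUBB2A, TUBB2B and TUBB3 were as follows.
TUBA1B: atgcgtgagtgc
TUBA4A: atgcgtgaatgc
TUBB: atgagggaaatc
TUBB2A: atgcgcgagatc
TUBB2B: atgcgtgagatc
TUBB3: atgagggagatc
TUBB4B shared the TUBB spelling and TUBB6 that of TUBB3.

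The last 60 coding bases before the stop codon of the beta members hold the tail, and codons for glutamate are in capitals. All lie in exon 4, the last exon of each canonical transcript, at chr6:30724335-30724394 (plus strand) for TUBB and chr6:3153866-3153925 (minus) for TUBB2A. Those of TUBB2B, TUBB3, TUBB4B and TUBB6 lie at chr6:3224754-3224813 (minus), chr16:89935742-89935801 (plus), chr9:137243494-137243553 (plus) and chr18:12326068-12326127 (plus).
TUBB: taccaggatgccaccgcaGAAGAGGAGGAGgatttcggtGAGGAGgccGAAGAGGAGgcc
TUBB2A: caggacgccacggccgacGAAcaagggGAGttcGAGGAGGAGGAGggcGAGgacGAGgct
TUBB2B: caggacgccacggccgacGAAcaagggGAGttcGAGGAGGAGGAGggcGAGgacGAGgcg
TUBB3: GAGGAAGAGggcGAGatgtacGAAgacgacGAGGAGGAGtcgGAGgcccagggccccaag
TUBB4B: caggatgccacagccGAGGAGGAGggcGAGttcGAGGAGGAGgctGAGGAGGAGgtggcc
TUBB6: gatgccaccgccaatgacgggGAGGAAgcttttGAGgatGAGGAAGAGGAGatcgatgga
Glutamate codons numbered from 7 in TUBB6 to 10 in TUBB4B among the beta tails, with 9 in TUBB3, whose last codon is for lysine.

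Near-identical copies limit how far reads can be assigned to one isotype. TUBB2A and TUBB2B, neighbours on the short arm of chromosome 6 at chr6:3153666-3157544 and chr6:3224277-3227653 (both minus strand), were 98.2% identical over the aligned coding bases and shared a run of 725 bases. Of the 200-base windows of the TUBB2A transcript, the insert length that the labels give, 614 of 1417 (43.3%) also occur in TUBB2B. No other pair of the 15 beta pairs shared such a window, and 2 of the 6 alpha pairs did, TUBA1B with TUBA1C (127 of 1428 windows of TUBA1B) and TUBA1A with TUBA1B (22 of 1473). How reads that match both copies were divided is not given in the sources used here, so the split between TUBB2A and TUBB2B is uncertain. TUBA4A overlaps TUBA4B on the opposite strand and TUBB3 lies beside MC1R, and whether reads were counted by strand is not given in the sources used here.

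The table gives CPM, the reads of a gene per 1000000 reads counted in its library. Depth was 15.0 to 22.5 M reads (M, 1000000) per library. Keratin 8 and the 4 other genes listed as present in PC-3 summed to 2533 to 3512 CPM. Of the 10 neuronal or neuroendocrine markers listed, 5 were in the table, and ENO2 at 167 to 262 CPM made up nearly all of their summed 169 to 265 CPM. The 2 immune markers in the table summed to 2.86 to 6.93 CPM. All 5 fibroblast markers summed to 47.6 to 84.4 CPM, nearly all COL1A1. On day 7 the ratio of treated to untreated libraries followed transcript length over all genes, with a Spearman rho over genes of -0.63 for EE-TOPO and -0.67 for CONV-TOPO, so shorter transcripts were higher. The tubulin transcripts are short, from 1563 bases (TUBB4B) to 2823 bases (TUBA1C), and their ratios are therefore also given with the trend removed. In bulk RNA, fewer cells of a type and less RNA per cell cannot be told apart.

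Levels can be compared between genes only per length, here as CPM per kilobase of the canonical transcript. By the mean of the 7 libraries the order was TUBA1B at 986, TUBB at 599, TUBB4B at 357, TUBA1C at 347, TUBB3 at 76.3, TUBA1A at 64.1, TUBA4A at 35.8, TUBB6 at 26.0, TUBB2A at 20.9 and TUBB2B at 3.32 CPM per kilobase. Neighbours in this order whose ranges over the libraries overlapped were TUBA1B and TUBB, TUBB4B and TUBA1C, TUBB3 and TUBA1A, TUBA4A and TUBB6, and TUBB6 and TUBB2A. TUBB4B was above TUBA1C in 4 of 7 libraries and TUBB3 above TUBA1A in 4 of 7, so neither pair has a settled order. In the other overlapping pairs the first was higher in 7 of 7 libraries. The order depends on the length used, since by coding length TUBA1C was above TUBB4B in 7 of 7 libraries and TUBB above TUBA1B in 2 of 7. Together the members took 0.403% of all reads in the CONV-TOPO day 3 library, the lowest, and 0.616% in the EE-TOPO day 7 library, the highest, against 0.485% to 0.489% in the 3 untreated libraries.

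**Figure D1:**
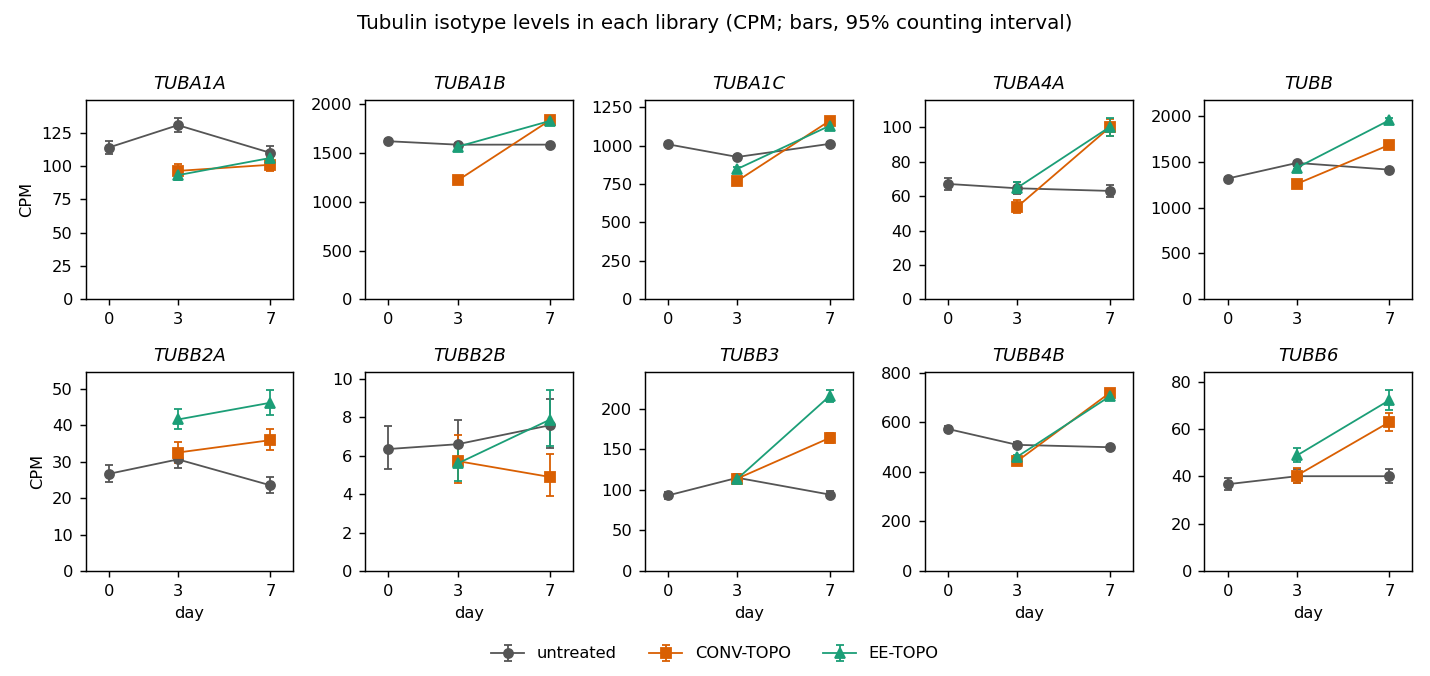
CPM (y axis, from 0, a scale of its own in each panel) of the 10 tubulin isotypes against day for untreated, CONV-TOPO and EE-TOPO spheroids, 1 library per point, with exact 95% counting intervals as bars. TUBB3 reached 216 CPM with EE-TOPO on day 7 against 94.3 CPM untreated, and TUBA1A lay below its untreated range in all 4 treated libraries as deposited, though not in the day 7 ratios after TMM scaling.

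Among the alpha tubulins, as deposited, the abundant TUBA1B and TUBA1C were higher than untreated in both regimens on day 7, and TUBA1A was not. On day 3 the ratios of all 3 to untreated were under 1 in both regimens. With the length trend removed, TUBA1B and TUBA1A were lower than untreated on day 7 and TUBA1C was higher. TUBA1B (chr12:49127782-49131395, minus strand), a ubiquitous alpha isotype, measured 1619, 1583 and 1584 CPM in untreated spheroids on days 0, 3 and 7, 1217 and 1834 CPM in the CONV-TOPO libraries of days 3 and 7, and 1563 and 1827 CPM in those of EE-TOPO. Its CONV-TOPO day 3 library was the lowest of the 7 and both day 7 treated libraries were the highest. The ratio to untreated on day 3 was 0.769 (95% interval 0.755 to 0.783) with CONV-TOPO and 0.987 (95% interval 0.972 to 1.00) with EE-TOPO. The day 7 values were 1.16 and 1.15. These intervals are exact, and cover counting error only, not the spread between spheroid cultures.

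TUBA1C (chr12:49227926-49274600, plus strand), its close copy, had 1008, 926 and 1011 CPM untreated, 771 and 1162 CPM with CONV-TOPO and 848 and 1129 CPM with EE-TOPO, in the same order of days. Both day 3 treated libraries were below the untreated range and both day 7 treated libraries above it. Both day 7 treated libraries lay above all 3 untreated ones in 8 of 9 members, all but TUBA1A. The same was so for 23.6% of the 9985 genes whose mean reached 10 CPM. TUBA1A (chr12:49184795-49189080, minus strand), the main alpha isotype of developing neurons, had 114, 131 and 109.8 CPM untreated against 96.3 and 101 CPM with CONV-TOPO and 93.1 and 106 CPM with EE-TOPO. All 4 treated libraries lay below all 3 untreated ones, which was so for 6.94% of the 9985 genes whose mean reached 10 CPM. With library composition scaled by TMM, the trimmed mean of log ratios, the 2 day 7 ratios of TUBA1A turned to 1.09 with CONV-TOPO and 1.13 with EE-TOPO.

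TUBA4A (chr2:219249710-219254740, minus strand), an alpha isotype known from platelets, was near 67.1, 64.5 and 63.0 CPM untreated and 53.7 and 64.8 CPM on day 3 of CONV-TOPO and EE-TOPO. On day 7 it reached 99.9 CPM with CONV-TOPO and 100.1 CPM with EE-TOPO, above every other library. Ratios to untreated on day 7 were 1.58 (95% interval 1.47 to 1.71) and 1.59 (95% interval 1.47 to 1.71). It was the single alpha member past 1.5-fold in either comparison.

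As deposited, the beta isotypes were all higher in both treated libraries of day 7 than in the untreated one except TUBB2B, and TUBB4B in both and TUBB and TUBB2A with CONV-TOPO turned lower once a trend with transcript length, given further on, was removed. TUBB (chr6:30720352-30725422, plus strand), the main beta isotype here, had 1316, 1486 and 1413 CPM untreated, 1258 and 1683 CPM with CONV-TOPO and 1434 and 1952 CPM with EE-TOPO. On day 7 the ratio of EE-TOPO to untreated was 1.38 (95% interval 1.36 to 1.40) and that of CONV-TOPO 1.19 (95% interval 1.17 to 1.21). TUBB4B (chr9:137241287-137243707, plus strand), a widely expressed beta isotype also used in cilia, had 573, 508 and 499 CPM untreated, 443 and 718 CPM with CONV-TOPO and 460.4 and 704 CPM with EE-TOPO. For both genes the 2 day 7 treated libraries were the highest of the 7, and TUBB4B on day 3 was lower with either regimen than in any untreated library. Both day 7 treated libraries were above all 3 untreated ones in 23.6% of the 9985 genes.

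TUBB3 (chr16:89921925-89936097, plus strand) had the highest day 7 ratio of the members. Untreated spheroids measured 93.3, 115 and 94.3 CPM on days 0, 3 and 7. On day 3 CONV-TOPO gave 114 CPM and EE-TOPO 114 CPM, both inside the untreated range. On day 7 CONV-TOPO gave 164 CPM and EE-TOPO 216 CPM, both above it, as was so for 23.6% of the 9985 genes. The day 7 ratio to untreated was 1.74 (95% interval 1.64 to 1.85) with CONV-TOPO and 2.29 (95% interval 2.16 to 2.43) with EE-TOPO. The untreated library of day 7 was lower than that of day 3 by a ratio of 0.820. Against untreated day 0 the log2 ratio was 0.82 with CONV-TOPO and 1.21 with EE-TOPO, and against the geometric mean of the 3 untreated libraries 0.71 and 1.11. ENO2, the 1 neuronal or neuroendocrine marker of the list with at least 10 CPM, had day 7 ratios of 1.20 and 1.16.

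TUBB2A and TUBB6 were the 2 members with all 4 treated libraries above all 3 untreated ones, which was so for 4.38% of the 9985 genes. With TMM scaling TUBB2A was the 1 member with this pattern (4.30% of genes), since TUBB6 with CONV-TOPO on day 3 then stood at 37.6 CPM, below untreated day 3 at 38.6 CPM. TUBB2A had 26.6, 30.6 and 23.5 CPM untreated, 32.5 and 35.9 CPM with CONV-TOPO and 41.6 and 46.1 CPM with EE-TOPO. The ratio with EE-TOPO was 1.36 (95% interval 1.22 to 1.51) on day 3 and 1.96 (95% interval 1.74 to 2.21) on day 7, and with CONV-TOPO 1.06 (95% interval 0.940 to 1.20) and 1.53 (95% interval 1.35 to 1.73). The CONV-TOPO interval of day 3 includes 1.

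TUBB6 (chr18:12307669-12329826, plus strand), a divergent beta isotype widely expressed at low levels, had 36.7, 40.1 and 40.1 CPM untreated, 40.4 and 63.0 CPM with CONV-TOPO and 48.9 and 72.3 CPM with EE-TOPO. On day 3 its CONV-TOPO library was above the highest untreated library by less than the counting interval. Day 7 ratios were 1.57 (95% interval 1.43 to 1.73) with CONV-TOPO and 1.80 (95% interval 1.64 to 1.98) with EE-TOPO. TUBB2B, the rarest member, had 6.35, 6.61 and 7.60 CPM untreated, 5.73 and 4.90 CPM with CONV-TOPO and 5.60 and 7.89 CPM with EE-TOPO, from 81 to 145 estimated reads a library. Its ratio to untreated on day 7 was 0.645 (95% interval 0.490 to 0.861) with CONV-TOPO, unlike that of TUBB2A, and 1.04 (95% interval 0.814 to 1.34) with EE-TOPO.

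**Figure D2:**
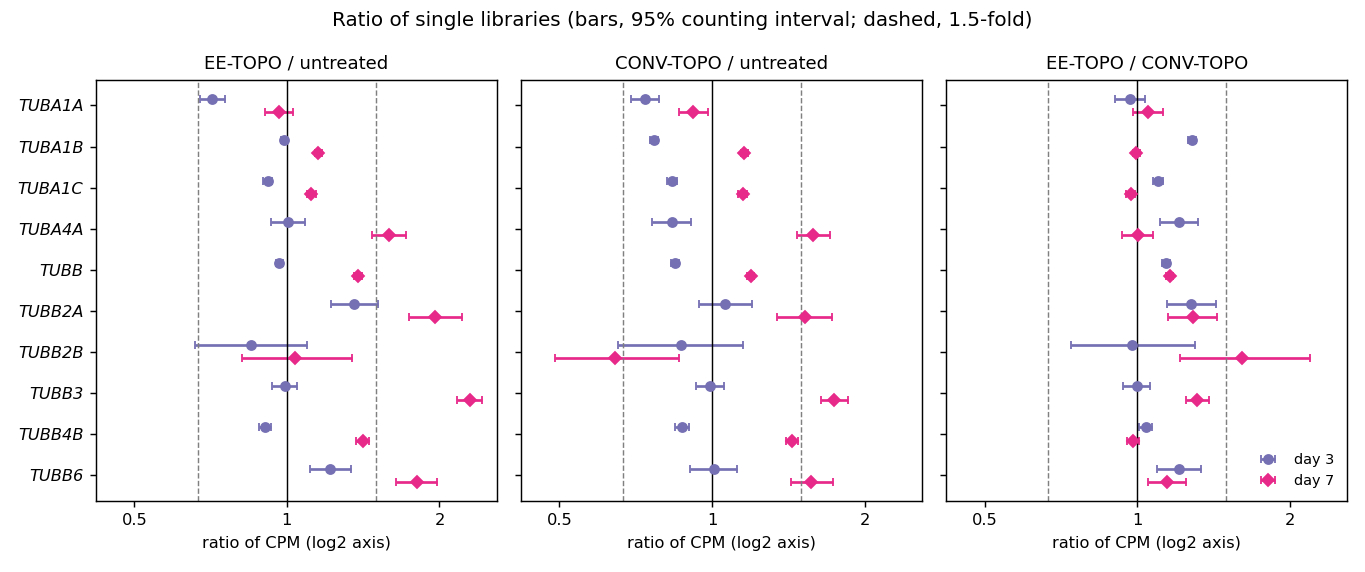
Ratio of CPM (log2 x axis) of the 10 isotypes for EE-TOPO to untreated, CONV-TOPO to untreated and EE-TOPO to CONV-TOPO on days 3 and 7, with exact conditional binomial 95% intervals as bars and dashed lines at 1.5-fold. The day 7 points of TUBA4A, TUBB2A, TUBB3 and TUBB6 lie past 1.5-fold against untreated in both regimens, TUBB2B lies past it on the lower side with CONV-TOPO on day 7, and no day 3 point lies past it.

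Counts of members past 1.5-fold were read among the 9 members whose 2 libraries averaged 10 CPM or more, which leaves out TUBB2B. On day 3, 0 of 9 passed with EE-TOPO, where 10.7% of all genes tested passed in either direction, and 0 of 9 with CONV-TOPO, where 4.84% did. On day 7, 4 of 9 were higher with EE-TOPO, where 14.8% of genes were higher and 47.1% passed in either direction. The same 4, TUBA4A, TUBB2A, TUBB3 and TUBB6, were higher with CONV-TOPO, where 13.1% of genes were higher and 45.9% passed either way. Both comparisons share the untreated day 7 library. The median log2 ratio of the 9 members on day 7 was 0.50 (EE-TOPO) and 0.52 (CONV-TOPO), against -0.23 and -0.25 over all genes tested. TMM scaling moved every day 7 log2 ratio up by 0.22 with EE-TOPO and 0.25 with CONV-TOPO, which brought the medians of all genes to -0.0082 and 0.00053 and put 6 and 5 members past 1.5-fold, with TUBB4B added in both and TUBB with EE-TOPO. Under that scaling 22.3% of genes were at least 1.5-fold higher and 22.8% lower with EE-TOPO, and 21.8% higher and 21.0% lower with CONV-TOPO, while as deposited 32.3% and 32.7% were lower.

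Between untreated libraries no member passed 1.5-fold, with 7.83% of genes past it from day 0 to day 3, 6.75% from day 0 to day 7 and 7.62% from day 3 to day 7. The ratios furthest from 1 were 1.23 (95% interval 1.16 to 1.31) for TUBB3 on day 3 against day 0 and 0.768 (95% interval 0.678 to 0.871) for TUBB2A on day 7 against day 3. TUBB4B was lower on both later days, at 0.888 and 0.871 of its day 0 level. TUBA1B varied least, at 0.978 and 0.978.

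A test across days, limma on log2 of TMM-scaled CPM plus 1 with treatment and day as terms, asks whether a regimen differed from untreated on days 3 and 7 alike. It called 0 of 14731 genes (0%) in each of the 3 contrasts at an adjusted p under 0.05 (Benjamini-Hochberg), and therefore no member. At an unadjusted p under 0.05, 525 genes (3.56%) passed for EE-TOPO against untreated, 254 for CONV-TOPO against untreated and 129 for EE-TOPO against CONV-TOPO. TUBB2A was the 1 member among them, with a log2 fold change of 0.76 ± 0.30 (SE) for EE-TOPO against untreated, an unadjusted p of 0.042 and an adjusted p of 0.907. TUBB3 had 0.66 ± 0.38 and an adjusted p of 0.907, and TUBB6 0.63 ± 0.30 and an adjusted p of 0.907. With 2 residual degrees of freedom, the spread in this fit is the difference between the days, so a response seen on day 7 alone counts as spread.

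The day 7 ratios to untreated moved down when the trend over all genes in gene span and transcript length was removed. Those of TUBA1A and TUBA1B ended further from 1 than before. Span and length accounted for 39.0% of the variance of the log2 ratio over genes with EE-TOPO and 43.9% with CONV-TOPO. TUBB3 went from 1.20 to 0.75 with EE-TOPO and from 0.80 to 0.35 with CONV-TOPO on the log2 scale, and TUBB6 from 0.85 to 0.52 and from 0.65 to 0.31. TUBB2A went to 0.28 and -0.079, and TUBA4A to 0.12 and 0.13. Of the abundant isotypes a pair turned lower than untreated in both regimens, TUBA1B at -0.50 with EE-TOPO and -0.49 with CONV-TOPO and TUBB4B at -0.30 and -0.26. TUBB stood at 0.022 and -0.17, and TUBA1C stayed higher at 0.14 and 0.17. The TUBA1C value leans on its annotated length. Its listed span starts 37156 bases before its canonical transcript, at 2823 bases the longest of the members. TUBB3 with EE-TOPO was then the 1 member at least 1.5-fold higher, where 7.01% of genes were, and with CONV-TOPO 0 of 9 were, where 4.43% were. On day 3 the trend with EE-TOPO ran the other way (rho 0.54 with transcript length), and its removal took TUBB2A from 0.44 to 0.65, past 1.5-fold, where 3.98% of genes were higher. On day 7 TUBA1A was past 1.5-fold lower in both, at -0.70 and -0.77, as were 25.4% of genes (EE-TOPO) and 25.3% (CONV-TOPO). With GC content, which is 62.2% in the TUBB3 transcript, removed as well, TUBB3 stood at 0.42 and 0.034 and no member was at least 1.5-fold higher, where 5.12% of genes with EE-TOPO and 3.34% with CONV-TOPO were. TUBA1A was then at -0.58, inside 1.5-fold, and -0.64, where 23.4% and 22.1% of genes were lower.

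**Figure D3:**
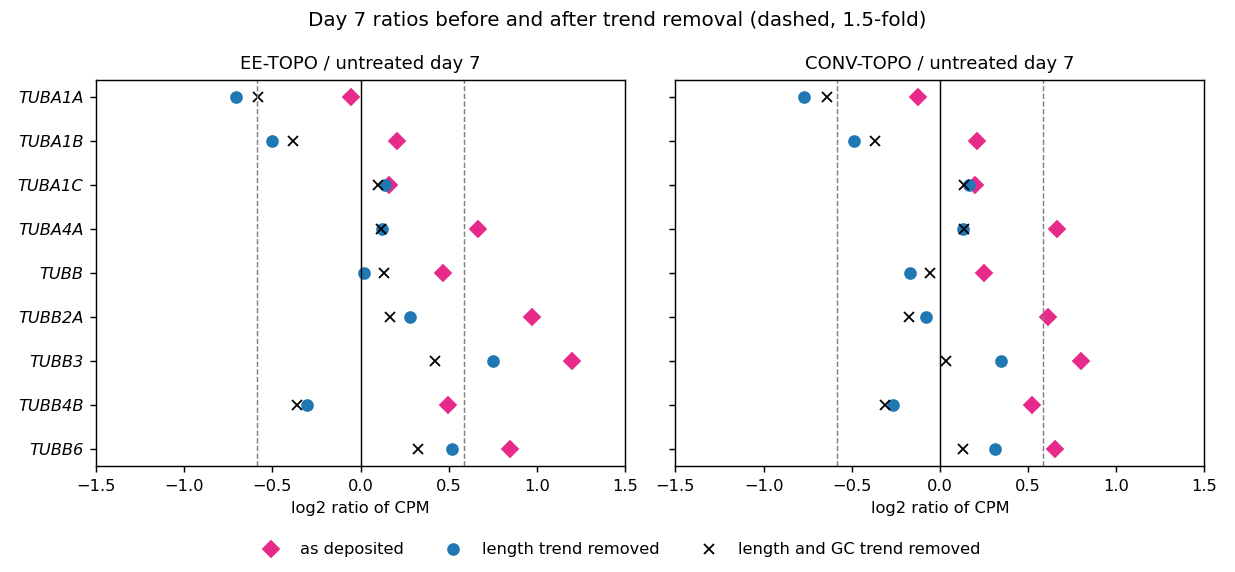
log2 ratio of CPM on day 7 (x axis) of the 9 isotypes with at least 10 CPM, as deposited, after removal of the trend in gene span and transcript length, and after removal of the trend in GC content too, for EE-TOPO and CONV-TOPO against untreated. With EE-TOPO, TUBB3 lies at 1.20, 0.75 and 0.42 in that order, and dashed lines mark 1.5-fold.

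Between the regimens, no member with at least 10 CPM passed 1.5-fold on day 3 (3.57% of genes did) or on day 7 (3.47%). TUBB3 was higher with EE-TOPO on day 7, at 1.32 (95% interval 1.25 to 1.38), and on day 3 stood at 0.998 (95% interval 0.939 to 1.06). TUBB2A was higher with EE-TOPO on both days, at 1.28 (95% interval 1.15 to 1.43) and 1.29 (95% interval 1.15 to 1.44), as were TUBB at 1.14 and 1.16 and TUBB6 at 1.21 and 1.15. The counting intervals of these 3 genes exclude 1 on both days, and the share of all genes with that result was not counted. In the order of all genes tested, TUBB2A stood at percentiles 91.6 and 92.6, TUBB at 77.1 and 81.9 and TUBB6 at 86.2 and 80.0. TUBA1B was higher with EE-TOPO on day 3, at 1.28 (95% interval 1.26 to 1.31), but at 0.996 (95% interval 0.980 to 1.01) on day 7. TUBB2B had 1.61 (95% interval 1.22 to 2.19) on day 7 from 119 against 81 estimated reads, under the 10 CPM minimum. Span and length accounted for 16.1% of the variance over genes of the day 3 difference between regimens and 1.04% of the day 7 difference, and TUBB3 kept a day 7 log2 ratio of 0.39 without that trend, against 0.40 with it. Mitosis markers, a list of 15 genes, were higher with EE-TOPO in 14 of 15 on day 3 and in 1 of 14 on day 7, where 52.0% and 51.9% of all genes tested were higher.

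Shares within the beta pool set the isotypes against each other inside a library. TUBB made up 52.2% to 57.8% of the summed beta level per kilobase over the 7 libraries and TUBB4B 29.9% to 37.2%. TUBB3 took 5.56%, 6.56% and 5.66% in untreated spheroids on days 0, 3 and 7, 7.47% and 7.51% with CONV-TOPO and 6.77% and 8.90% with EE-TOPO. TUBB6 took 1.99%, 2.08% and 2.19% untreated, 2.40% and 2.61% with CONV-TOPO and 2.64% and 2.70% with EE-TOPO. For both, the 4 treated libraries lay above the 3 untreated ones. TUBB2A ranged from 1.49% to 2.61%, with treated and untreated libraries overlapping, and TUBB2B from 0.199% to 0.405%.

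**Figure D4:**
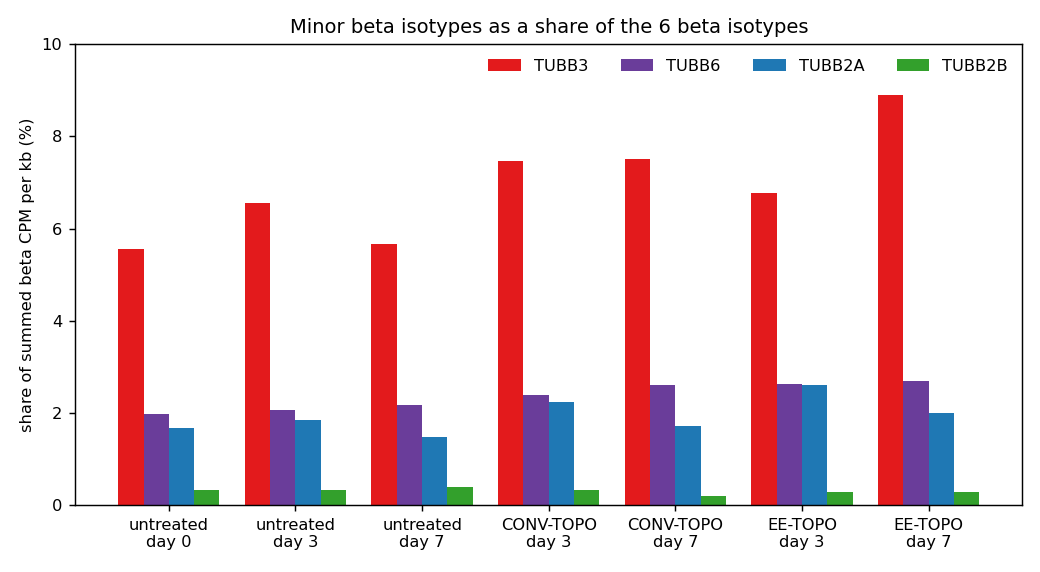
Share (%) of TUBB3, TUBB6, TUBB2A and TUBB2B in the summed CPM per kilobase of the 6 beta isotypes, 1 bar per isotype in each of the 7 libraries, from 0. TUBB3 was highest with EE-TOPO on day 7 at 8.90% and lowest in untreated spheroids on day 0 at 5.56%.

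Within the alpha pool TUBA1B held 67.7% to 71.2%, TUBA1C 22.3% to 25.1%, TUBA1A 3.66% to 5.53% and TUBA4A 2.15% to 2.99%. These shares lean on transcript length, since the canonical TUBA1C transcript is the longest of the members. By coding length the median share of TUBA1C was 36.0% in place of 24.6%. The summed alpha level per kilobase was 1.48, 1.37 and 1.46 times the beta level in untreated spheroids on days 0, 3 and 7, 1.23 and 1.28 times with CONV-TOPO on days 3 and 7, and 1.37 and 1.15 times with EE-TOPO. The EE-TOPO day 7 library had the lowest ratio of the 7 and untreated day 0 the highest.

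Other genes of the tubulin pathway were counted by lists with EE-TOPO on day 7, where, of all genes, 14.8% were at least 1.5-fold higher and 32.3% lower. Of 20 folding genes, which build and assemble the heterodimer (prefoldin, CCT and tubulin cofactors), 3 were at least 1.5-fold higher and 1 lower with EE-TOPO, at a median log2 ratio of -0.11 against -0.23 over all genes. The prefoldin subunit PFDN6 was highest at 2.16 and the cofactor TBCE lowest at 0.557. Of 9 genes of the gamma-tubulin complex, which nucleates microtubules, 2 were higher and 6 lower, from MZT2B at 2.41 to TUBGCP6 at 0.253, at a median of -0.99. The 10 modifying enzymes tested had 1 higher and 5 lower, from the deacetylase SIRT2 at 1.74 to the polyglutamylase TTLL11 at 0.228. Among 18 microtubule-associated and severing proteins, 1 was higher and 8 lower, from MAPRE3 at 1.74 to CLASP2 at 0.354. The median log2 ratio was -0.62 for the modifying enzymes and -0.48 for these proteins, and -0.29 and -0.25 with the length trend removed. That of the gamma-tubulin complex was then -0.86 and that of the folding genes -0.32. The removal kept the shift over all genes, whose median as deposited was -0.23, so these medians are not centred on 0.

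Mitosis markers had 1 of 15 higher and 8 lower with EE-TOPO on day 7, from AURKB at 1.88 to CENPE at 0.244, and the same counts with CONV-TOPO, where 13.1% of all genes were higher and 32.7% lower. Their summed level was 1165 CPM untreated, 740.1 with CONV-TOPO and 644 with EE-TOPO on day 7, and the part of this list in the tubulin ratios was not tested. On day 3 the sums were 692, 641 and 931 CPM. Of the other tubulins, TUBG1, the gamma tubulin, had a day 7 ratio of 1.30 with EE-TOPO and TUBB4A 1.13, the 2 with at least 10 CPM.

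The autoregulation genes were not higher with either regimen on day 7. TTC5, which binds the nascent tubulin chain, had 9.27, 10.9 and 9.35 CPM untreated, 7.57 and 6.93 CPM with CONV-TOPO and 13.1 and 5.72 CPM with EE-TOPO. SCAPER, its adaptor, had day 7 ratios of 0.556 and 0.373, and CNOT11, of the deadenylase complex, 0.985 and 0.856. TTC5 and SCAPER were under the 10 CPM minimum in both day 7 comparisons.

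The genes whose profile over the 7 libraries was most like that of TUBB3, by the root-mean-square difference of centred log2(CPM + 1) among 9976 other genes with at least 10 CPM on average, were ISYNA1 (0.060), CYP27A1 (0.061), SPNS1 (0.062), NAGK (0.067) and CLN3 (0.079). For TUBB2B they were ZBED6CL (0.11), TBCD (0.11), CRTC1 (0.12), RXYLT1 (0.12) and SAYSD1 (0.12), and 0 genes lay within 0.5 times the spread of TUBB2B itself, 0.20. TBCD is a tubulin folding cofactor. The nearest gene was SARNP for TUBA1A, ACAA2 for TUBA1B, MELTF for TUBA1C, ATP6V0E2 for TUBA4A, ANKRD39 for TUBB, CXCL16 for TUBB2A, TXN2 for TUBB4B and DPYSL2 for TUBB6. Among the members themselves TUBA1B and TUBA1C were closest, at 0.079, and TUBA1A and TUBB3 furthest apart, at 0.46. Within 0.5 times the spread of TUBB3 itself, 0.41, lay 441 genes.

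The promoters of TUBB3 and of the neighbours TUBB2A and TUBB2B are shown for reference, and their part in the levels or ratios was not tested. The 150 bases before each RefSeq start on GRCh38.p14 lie at chr16:89923192-89923341 (plus strand), chr6:3157545-3157694 (minus) and chr6:3227654-3227803 (minus). That of TUBB3 precedes the start of its canonical transcript, 1417 bases inside the RefSeq gene given above. Capitals mark the CCAAT box, the GGGCGG motif and the TATAAA motif on either strand.
TUBB3: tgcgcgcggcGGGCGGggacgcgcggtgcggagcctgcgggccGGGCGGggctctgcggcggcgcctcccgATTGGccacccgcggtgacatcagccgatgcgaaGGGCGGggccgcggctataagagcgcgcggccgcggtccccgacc
TUBB2A: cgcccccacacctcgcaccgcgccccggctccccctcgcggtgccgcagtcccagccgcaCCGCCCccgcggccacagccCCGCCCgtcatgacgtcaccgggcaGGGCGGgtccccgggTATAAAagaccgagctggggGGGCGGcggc
TUBB2B: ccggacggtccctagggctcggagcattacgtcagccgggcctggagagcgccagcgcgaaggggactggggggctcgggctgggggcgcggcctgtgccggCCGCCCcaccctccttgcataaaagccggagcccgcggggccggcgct
In the 250 bases before the start, CCAAT occurred in 7 of the 10 members and in 32.0% of 35116 RefSeq promoters, GGGCGG in 8 of 10 and 42.6%, and TATAAA in 1 of 10, TUBB2A, and 10.7%. TUBB2A held 5 GGGCGG matches, TUBB2B 1 and TUBB3 3. Over the aligned bases of these 250, TUBB2A and TUBB2B were 49.8% identical, against 98.2% in their coding sequence. The level between unrelated promoters was not computed.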

How the data were processed

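RNA from PC-3 spheroids was sequenced by the authors after TruSeq library construction, mapped to hg38 with STAR and normalized to CPM, reads per 1000000 reads counted, with DESeq2, edgeR and Partek Flow named for the analysis. The deposited table of CPM holds 18144 genes and 7 libraries, and an offset of 0.0001 CPM that the authors had added was subtracted here. Of the 10 samples, the 3 of day 1 were not analysed here. Groups came from the identifier in each sample title. Annotation versions and counting strand are not given in the sources used here.

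Low values lie on steps of 1 read, which gave 15.0 to 22.5 M reads (M, 1000000) per library (median 18.9), but 88.1% to 89.8% of them were whole within 0.02 of a read, so no count test was used. Where a gene is listed at 0, 3 reads (0.133 to 0.200 CPM) are allowed. Single libraries were compared by the ratio of CPM, with exact conditional binomial 95% intervals that cover counting error only, and were called at 1.5-fold among genes with at least 10 CPM in their mean. limma 3.58.1 (R 4.3.3; trend, two-sided) was run on log2(TMM-scaled CPM + 1) for the 6 libraries of days 3 and 7, over genes with at least 10 reads at the median depth (0.565 CPM) in at least 2 libraries. Fold changes on that scale understate those of low genes. Nothing in the labels says that libraries came from separate cultures. Trends were removed by least squares in log10 span and log10 transcript length with their squares, and the median of the fitted values over genes was kept. Transcripts, coding sequence and lengths were taken from GENCODE 44, where 17109 genes had a canonical transcript, and promoters from RefSeq (all 10 members matched). The study speaks of weeks of exposure, while the labels give days, which were used. Scripts were tested on simulated data.

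The members and lists were chosen with earlier results of these data known. Named were all members, from each other list the gene with the highest and the lowest EE-TOPO to untreated ratio on day 7, all 3 autoregulation genes, and the genes of most similar profile (5 for TUBB2B and TUBB3, 1 for the others). Alternatives covered scaling, pseudocount (0.1 CPM), filters, baseline, threshold, trend, left-out days and length. Protein sequences were not used here. A marker result and some coding sequences are not reported here.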

Additional observations from a re-analysis of the deposited data

Results flagged for a closer look

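Of the 9 tubulins with at least 10 CPM, 5 went in opposite directions on the 2 days, lower than untreated in both regimens on day 3 and higher in both on day 7. The difference between the days was not tested, since each treatment and day has 1 library and both regimens are divided by the same untreated library. The mean log2 ratio of the 2 regimens to untreated was higher on day 7 than on day 3 by 0.41 for TUBA1B, 0.37 for TUBA1C, 0.50 for TUBB, 1.01 for TUBB3 and 0.68 for TUBB4B. For TUBB3 the day 3 ratios were 0.990 with EE-TOPO and 0.992 with CONV-TOPO, whose counting intervals include 1. The interval of TUBA1B with EE-TOPO on day 3, at 0.987, includes 1 as well. The same pattern was found in 1696 of 9643 genes (17.6%), and the opposite one in 2772 (28.7%). With TMM scaling 7 of the 9 members and 26.0% of genes showed it. Transcript length went with the ratio over genes on day 3 (rho 0.54 with EE-TOPO and 0.35 with CONV-TOPO) and in the reverse sense on day 7 (-0.63 and -0.67). With the trend in span and length removed, 1 of the 5 (TUBA1C, whose listed span starts 37156 bases before its canonical transcript) and 859 of 9512 genes (9.03%) showed the pattern. TUBA1B then stood at a log2 ratio of 0.19 with EE-TOPO on day 3 and at -0.50 and -0.49 with EE-TOPO and CONV-TOPO on day 7, TUBB4B at -0.30 and -0.26 on day 7, and TUBB3 at 0.17 and 0.076 on day 3. TUBB was 0.085 with EE-TOPO on day 3 and -0.17 with CONV-TOPO on day 7.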

How the results depend on the processing

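The counts of tubulins past 1.5-fold depended on the threshold, the baseline and the trend, and the share of all genes past the threshold in either direction stands in parentheses. On day 7, 4 members passed with EE-TOPO (47.1%) and 4 with CONV-TOPO (45.9%), and at 2-fold 1 with EE-TOPO (TUBB3; 20.7%) and 0 with CONV-TOPO (18.8%). With the trend in span and length removed, 2 passed with EE-TOPO (TUBB3 higher, TUBA1A lower; 32.4%) and 1 with CONV-TOPO (TUBA1A lower; 29.7%), and with GC content removed too, an alternative chosen after seeing the data, 0 (28.5%) and 1 (25.4%). Against untreated day 0, 3 passed with EE-TOPO on day 7 (38.7%), without TUBA4A, 2 with CONV-TOPO (36.4%), without TUBA4A and TUBB2A, and 1 with EE-TOPO on day 3 (18.6%). Against the geometric mean of the 3 untreated libraries, 4 passed with EE-TOPO on day 7 (41.0%), 3 with CONV-TOPO (39.6%), without TUBB2A, and 1 with EE-TOPO on day 3 (9.34%), as 1 did with the length trend removed (6.37%) and 1 with GC removed too (6.35%). At a minimum of 1 CPM, TUBB2B passed as well, lower with CONV-TOPO on day 7, which made 5 members (49.2%), and as the 1 member between the regimens on day 7 (11.3%). TUBB2A with CONV-TOPO on day 7 turned to a log2 ratio of -0.079 without the length trend and -0.18 without GC too, and the cause was not tested. Both values keep the shift over all genes, whose median as deposited was -0.25.

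In limma, 0 genes were called in every contrast except with the 4 libraries of a contrast alone, which leaves 1 residual degree of freedom and called 27 genes for EE-TOPO and 17 for CONV-TOPO against untreated and 65 between the regimens, with 0 members. Some fold changes changed sign. TUBA1C turned to -0.035 for EE-TOPO against untreated with day 0 added, and TUBB2B to 0.0084 with median-of-ratios scaling. For CONV-TOPO against untreated, TUBA1B turned to -0.084 and TUBA1C to -0.032 with library totals, and to -0.086 and -0.058 with day 0 added. For EE-TOPO against CONV-TOPO, TUBA1A turned to 0.011 and TUBB4B to 0.014 with library totals. With day 3 alone, which gives a value and no test, 6 of 10 members turned for EE-TOPO against untreated, among them TUBB3 from 0.66 to -0.083, TUBA4A from 0.41 to -0.062 and TUBB4B from 0.25 to -0.21, 7 for CONV-TOPO and 3 between the regimens. The share of all genes that turned was not counted. As deposited, 17.6% of genes were lower on day 3 and higher on day 7 in both regimens, and 28.7% the reverse.

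Undivided by length, the median shares were 3.97% for TUBA1A, 57.7% for TUBA1B, 35.9% for TUBA1C, 2.51% for TUBA4A, 66.4% for TUBB, 1.40% for TUBB2A, 5.41% for TUBB3, 23.5% for TUBB4B and 2.13% for TUBB6. By coding length they were 3.96%, 57.5%, 36.0%, 2.52%, 66.5%, 1.40%, 5.35%, 23.5% and 2.13% in the same order. Libraries of the same day were set against each other by the day term of the fit, and without that term 0 genes were called in each contrast. There are no replicate numbers to pair. A count model on recovered reads was not run, since 88.1% to 89.8% of low values are whole reads. A single library per condition and counting intervals alone limit every ratio, and the least abundant member, TUBB2B, rests on 81 to 145 reads.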

Other observations

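The 2 untreated libraries of days 3 and 7 were not alike in the mitosis markers, of which 14 of 15 were higher on day 7 and 9 at least 1.5-fold, where 49.2% of all genes were higher and 404 of 10091 at least 1.5-fold, while 0 of 9 tubulins passed 1.5-fold between them.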
